A study of Mus musculus with 12 samples.

Results

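Tumours from mice that swam were set against tumours from mice that received curcumin, in 3 RNA sequencing libraries a side out of the 12 libraries of the series. All 21899 genes of the deposited table were taken, and the 13638 with enough reads to be tested are described. The study grew 4T1-LUC mammary carcinoma, a luciferase-carrying mouse breast cancer line, under the skin of BALB/c mice that were 4 to 6 weeks old. Each mouse received 200 µL by gavage every afternoon. The swimming mice received corn oil without curcumin and swam for 30 min, starting 30 min after gavage. The curcumin mice received curcumin at 100 mg/kg in corn oil and did not swim. The other 6 libraries, 3 from controls given corn oil alone and 3 from a combination of curcumin with swimming, served as reference and shared the estimate of spread. The 2 groups therefore differ in 2 respects at once, the compound and the exercise, and a difference between them is not a difference from untreated tumours. All groups carried the same tumour line and the same daily gavage. Whether the 3 libraries of a group stem from different mice is not stated in the labels, and p-values here therefore measure only the spread between these libraries. They do not give the hour at which tumours were taken either.

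Swimming is a form of forced endurance exercise in rodents, and it raises circulating glucocorticoids and catecholamines while it lasts. Glucocorticoids act through a nuclear receptor that switches on genes such as Per1, Klf9, Tsc22d3 and Sgk1 within hours, and Per1 also belongs to the circadian clock, a loop of transcription factors that repress their own synthesis. Curcumin is the yellow polyphenol of turmeric and is known for dampening NF-kB signalling and for activating the antioxidant factor Nrf2 in cultured cells. A 4T1 tumour holds carcinoma cells together with macrophages, neutrophils, fibroblasts, blood vessels and lymphocytes, so RNA of the whole tissue mixes all of them. In such bulk samples, fewer cells of a type and less RNA per cell cannot be told apart.

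The swimming libraries held 15444877, 15542508 and 16107085 counted reads, and the curcumin libraries 16080320, 15069348 and 15207038. Mitochondrially encoded genes took 4.36% to 4.87% of the reads in swimming and 3.34% to 4.06% in curcumin, without overlap. The spread between libraries, as a biological coefficient of variation, was 16.3% in swimming, 12.4% in curcumin, 26.7% in control and 6.47% in combination. The first principal component held 33.4% of the variance. On it, control 2 lay farthest out at 61.8, the swimming libraries at 22.8 to 30.7 on the same side, and the other 8 libraries on the opposite side. Markers of the tumour epithelium (Krt8, Krt18, Epcam and others) summed to 3726 to 4256 CPM (counts scaled to library size) in swimming and 3359 to 3821 in curcumin.

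Of the 13638 genes, 259 differed between swimming and curcumin at a Benjamini-Hochberg adjusted p of 0.05 or below in edgeR's quasi-likelihood test, which is 1.9% of those tested. After swimming 124 genes were higher (0.909%) and 135 were lower (0.99%). Below, rose and fell stand for higher and lower in swimming than in curcumin, not for a change from control. The differences were modest: the median log2 difference was 0.60 among genes called higher and -0.81 among genes called lower, against -0.02 over all tested genes. Past 2-fold stood 16 genes called higher and 55 called lower. Libraries of the 2 groups did not overlap for any of the 259, a condition that 30.9% of all tested genes met. The number of calls rested on which libraries shaped the estimate of spread: it was 639 in a fit of the 6 swimming and curcumin libraries alone, 12 without the combination group, and 0 with the 3 combination libraries summed into 1. Under that last fit, 2378 genes had an unadjusted p under 0.05. The combination libraries agreed more closely than those of any other group, and if they share a source, which the labels leave unsaid, the pooled spread behind the 259 calls would be too small. Leaving out curcumin 2, curcumin 3 or swimming 1 left 12, 3 or 4 calls. Leaving out curcumin 1 gave 143, swimming 3 gave 103 and any combination library gave 67 to 69. Without control 1 the count was 551 and without control 2 it was 1580. In each of these fits, as in every other one run, those of the 259 genes that were tested kept the sign of their difference. As the libraries of the 2 groups did not overlap for any of them, that was nearly fixed in advance and is no sign of robustness.

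**Figure D1:**
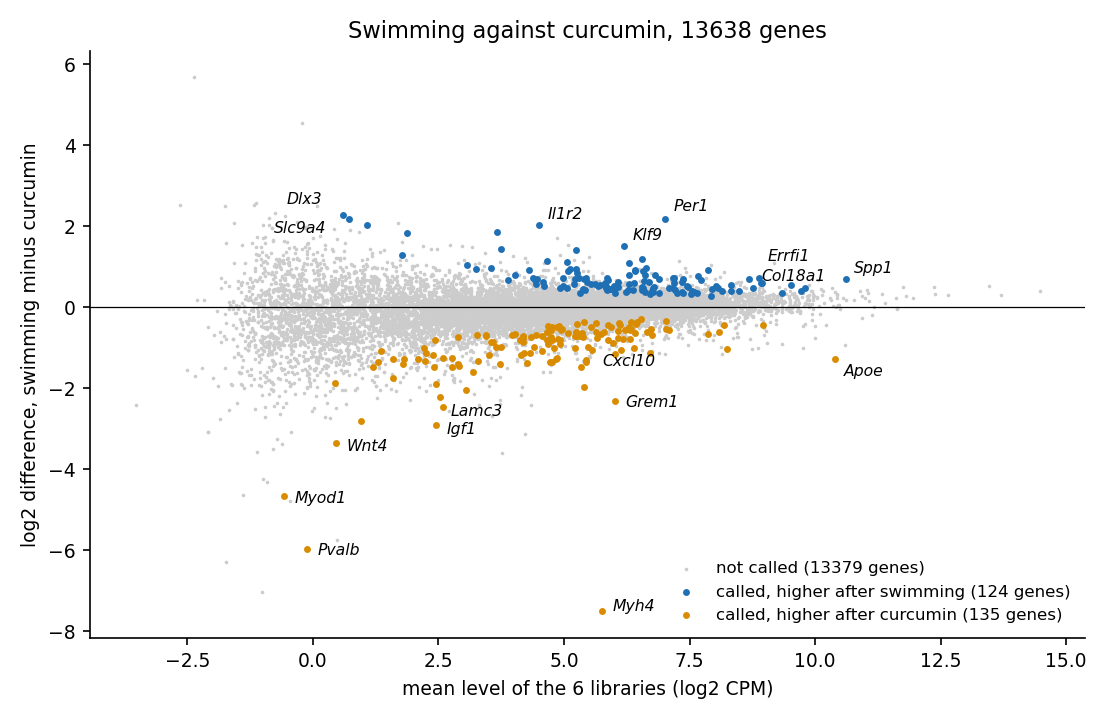
Log2 difference of swimming minus curcumin against the mean level of the 6 libraries (log2 CPM) for 13638 genes, 1 dot a gene. Blue dots are the 124 genes called higher after swimming and orange dots the 135 called lower, where the muscle genes Myh4, Pvalb and Myod1 lie lowest.

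Of 18 clock genes 3 rose after swimming, and of 20 glucocorticoid targets 6 rose, with Per1 in both lists. Over all tested genes 0.909% rose. Per1 (ENSMUSG00000020893, chromosome 11, 68986043 to 69000786 in the table's own coordinates), a core clock repressor, stood at 237, 152 and 248 CPM in the 3 swimming libraries. In the curcumin libraries it stood at 49.4, 47.1 and 44.5 CPM. Every swimming library lay far above the tightly grouped curcumin libraries, and Per1 rose by 2.18 ± 0.29 (log2 difference ± standard error; edgeR adjusted p = 0.00836). Control libraries held 31.7, 85.9 and 71.2 CPM and combination libraries 80.4, 86.2 and 70.4 CPM, all below every swimming library. Bhlhe41, a clock repressor that competes for E-boxes, was at 54.8, 47.5 and 47 CPM in swimming and at 27.2, 20.5 and 30.3 CPM in curcumin (0.94 ± 0.14, edgeR adjusted p = 0.0141). Nr1d1, which encodes the haem receptor REV-ERB alpha, was at 48.1, 48.4 and 34.7 CPM in swimming against 21.6, 24.7 and 24.6 CPM in curcumin (0.89 ± 0.20, edgeR adjusted p = 0.0468). Both groups were tight for Nr1d1 except for swimming 3, which lay closest to curcumin. No clock gene fell. The median of the list was 0.33, and 14 of the 18 differences were positive. The activator Clock (0.06) and the output gene Dbp (0.02) showed hardly any difference, and neither did the repressor Cry1 (0.03).

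The promoters of Per1 and Bhlhe41 are shown because both hold the E-box CACGTG, to which the clock activators bind, within 250 bases before to 50 bases after the start of transcription. They come from RefSeq on GRCm38.p6, 5′ to 3′ on the strand of the gene, with motif matches in capitals. The Per1 stretch is chr11:69098699-69098998 on the plus strand, and it is the one of the gene's 2 listed promoters that holds matches. Its capitals mark an E-box 166 bases before the start and the D-box TTATGNAA 24 bases before it. The Bhlhe41 stretch is chr6:145865371-145865670 on the minus strand, with its E-box 153 bases before the start.
Per1: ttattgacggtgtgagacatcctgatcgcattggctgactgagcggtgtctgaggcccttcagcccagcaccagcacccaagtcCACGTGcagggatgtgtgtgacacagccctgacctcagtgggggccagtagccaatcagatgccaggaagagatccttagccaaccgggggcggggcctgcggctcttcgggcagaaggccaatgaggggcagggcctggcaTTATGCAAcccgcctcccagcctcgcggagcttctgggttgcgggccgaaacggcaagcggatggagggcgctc
Bhlhe41: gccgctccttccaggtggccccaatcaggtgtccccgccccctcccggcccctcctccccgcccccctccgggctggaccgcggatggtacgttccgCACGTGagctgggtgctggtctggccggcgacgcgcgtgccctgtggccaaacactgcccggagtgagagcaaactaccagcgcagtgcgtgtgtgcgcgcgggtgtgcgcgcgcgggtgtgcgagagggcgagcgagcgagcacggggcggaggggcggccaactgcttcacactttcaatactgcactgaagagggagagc
Counted on both strands, 7.15% of 32851 promoters of this length hold CACGTG and 3.38% hold TTATGNAA. The listed promoter of Nr1d1 holds neither. A match is a description of letters and not of a bound site.

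Among glucocorticoid targets, 6 of 20 tested genes rose, where 0.909% of all tested genes did. None fell, and the list median was 0.64. Klf9, a zinc finger repressor that answers directly to the glucocorticoid receptor, was at 111, 118 and 98.5 CPM after swimming and at 27.4, 46.1 and 41.3 CPM after curcumin (1.51 ± 0.26, edgeR adjusted p = 0.0229). The lowest swimming library exceeded every control library too, of which the highest was control 2 at 83.3 CPM. Il1r2, the decoy receptor that soaks up interleukin 1, was at 38.6, 33 and 37.6 CPM against 10.6, 6.4 and 9.7 CPM (2.03 ± 0.33, edgeR adjusted p = 0.0183). It also stands in the neutrophil list, where it was the only member of 15 to rise, and the median of that list was 0.43. Tsc22d3, which encodes the anti-inflammatory protein GILZ, was at 114, 81 and 140 CPM against 50.3, 68.4 and 60.4 CPM (0.90 ± 0.17, edgeR adjusted p = 0.0313). Its swimming libraries were spread, and swimming 2 lay only a little above curcumin 2. Sgk1, a kinase that controls ion transport, was at 258, 227 and 289 CPM against 138, 164 and 152 CPM (0.77 ± 0.17, edgeR adjusted p = 0.0473). Errfi1, a feedback inhibitor of the EGF receptor, was at 598, 544 and 620 CPM against 354, 360 and 351 CPM (0.73 ± 0.09, edgeR adjusted p = 0.00765). The curcumin libraries were nearly equal for Errfi1 and far from the lowest swimming library. Not called were the classical targets Fkbp5 (0.36, edgeR adjusted p = 0.18), Dusp1 (1.23, edgeR adjusted p = 0.127) and Zbtb16 (1.11, edgeR adjusted p = 0.307). The palindromic glucocorticoid response element, searched on both strands, was found in 1 of the 15 listed promoters of these 6 genes, one of Sgk1, and in 0.00913% of all promoters.

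Per1 and Errfi1 kept their calls without the combination group, when the glucocorticoid list had 2 called members and the clock list 1. Without curcumin 3 or swimming 1 both lists had 0, and without curcumin 2 they had 1 and 0. Over the 25 alternatives, Per1 was called in 20, Errfi1 in 21, Klf9, Il1r2 and Bhlhe41 in 19 each, Tsc22d3 in 13 and Sgk1 and Nr1d1 in 12 each.

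**Figure D2:**
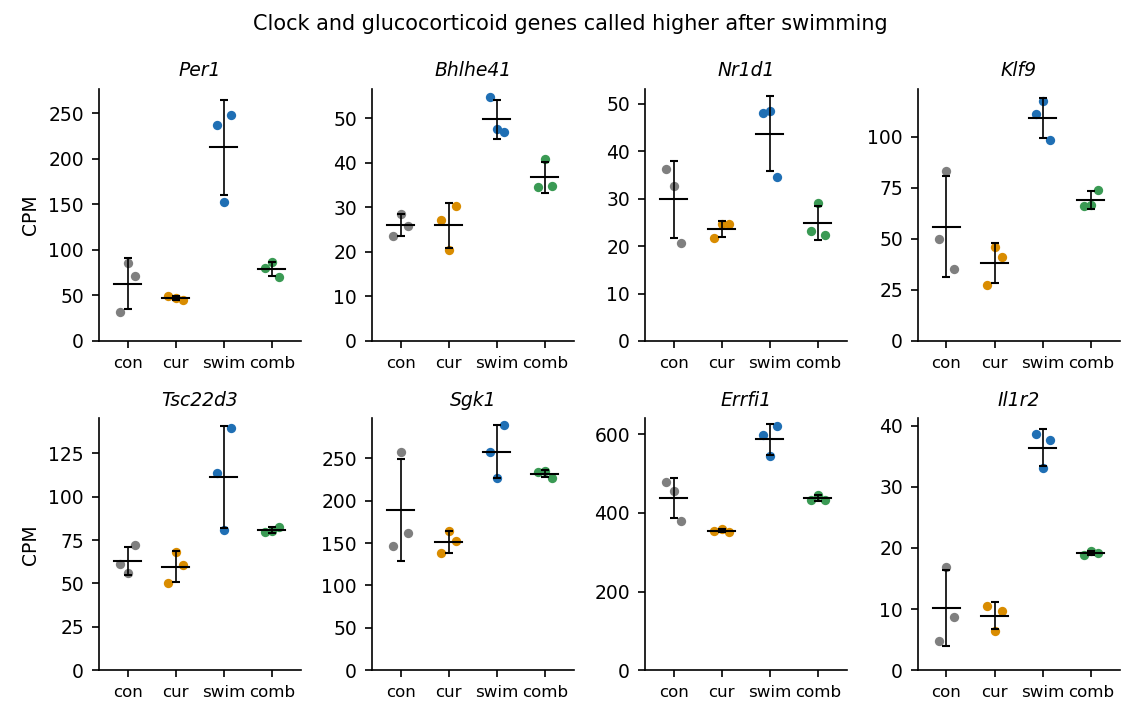
CPM of 8 clock and glucocorticoid genes in control (con), curcumin (cur), swimming (swim) and combination (comb) libraries, replicates 1 to 3 from left to right, with mean and SD (n = 3). For each gene all 3 swimming dots lie above all 3 curcumin dots, and Per1 reaches 152 to 248 CPM after swimming.

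Pthlh, parathyroid hormone-related protein, which breast carcinoma cells secrete and which drives bone resorption, was at 50.5, 37.3 and 49.6 CPM in swimming and 18.1, 23.9 and 21.3 CPM in curcumin. It rose by 1.12 ± 0.14 (edgeR adjusted p = 0.00765), and the control and combination libraries, at 26.6 to 39 CPM, lay mostly between. Cytip, a cytohesin-binding regulator of leukocyte adhesion, was at 55.9, 39.7 and 68.4 CPM against 17, 22.9 and 22.2 CPM (1.40 ± 0.20, edgeR adjusted p = 0.0124). Cd80, a costimulatory ligand for T cells, was at 16.9, 16.7 and 24.9 CPM against 9.16, 6.67 and 5.78 CPM (1.44 ± 0.26, edgeR adjusted p = 0.0253). For Cytip and Cd80 the control and combination libraries were close to curcumin, so that the swimming libraries alone stood high. Adamts1, a secreted protease that cleaves proteoglycans, was at 142, 143 and 106 CPM against 52.9, 62.9 and 55.4 CPM (1.19 ± 0.25, edgeR adjusted p = 0.0426). Here the combination libraries, at 103 to 105 CPM, were near swimming. Cirbp, the cold-inducible RNA-binding protein, was at 107, 86.3 and 128 CPM against 52, 49 and 48.6 CPM (1.10 ± 0.21, edgeR adjusted p = 0.0317), with control 2 at 86.4 CPM inside the swimming range. Col18a1, the basement membrane collagen that gives rise to endostatin, rose by 0.70 ± 0.11 (edgeR adjusted p = 0.0165), from 285 to 352 CPM in curcumin to 463 to 531 CPM in swimming. Spp1, the matrix cytokine osteopontin made by macrophages and carcinoma cells, stood at 1180 to 1207 CPM in curcumin and 1575 to 2340 CPM in swimming (0.70 ± 0.14, edgeR adjusted p = 0.0385).

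Less abundant genes made up the rest of the largest differences in this direction. Slc9a4, a sodium and proton exchanger of epithelia, had 124 reads over the 3 swimming libraries and 28 over the 3 curcumin libraries, or 3.01, 3.11 and 2.01 CPM against 0.663, 0.457 and 0.643 CPM (2.19 ± 0.34, edgeR adjusted p = 0.0165). Dlx3, a homeobox factor of skin and placenta, had 116 reads against 24, and its second swimming library, at 1.45 CPM, was less than the other two (2.29 ± 0.46, edgeR adjusted p = 0.0366). Gpr55, a lysophospholipid receptor, ranged from 2.51 to 8.4 CPM in swimming and from 1.33 to 1.83 CPM in curcumin (1.83 ± 0.38). Ky, a muscle-related protease, was at 2.88 to 4.2 CPM against 0.588 to 1.22 CPM (2.03 ± 0.42). Cables1, a cyclin-dependent kinase adaptor, differed by 1.29 ± 0.25 and the calreticulin family gene Calr4 by 1.14 ± 0.19. Rpl26 differed by 1.85 ± 0.38, from 3.86 to 6.99 CPM to 8.71 to 31.1 CPM. Ribosomal protein genes have many near-identical copies, and how shared reads were counted is not given in the sources used here, so that value is uncertain.

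Of 22 hypoxia genes only Kdm3a, a histone demethylase induced by HIF, was called, at 169, 170 and 189 CPM against 115, 123 and 111 CPM (0.60 ± 0.14, edgeR adjusted p = 0.0492). Over all tested genes 0.909% were called higher. The median of the list was 0.37 and 13 of its members had all swimming libraries above all curcumin libraries, where 15.5% of all tested genes did. Carbonic anhydrase Car9 (0.70, edgeR adjusted p = 0.0839), the glucose transporter Slc2a1 (0.74, edgeR adjusted p = 0.0816) and the vasodilator peptide Adm (1.11, edgeR adjusted p = 0.108) had positive differences that missed the threshold. None of 19 glycolysis genes was called, although 14 did not overlap with swimming higher and the median was 0.33. Aldoc came closest, at 69.2, 67.9 and 67.6 CPM against 46.7, 55 and 49.6 CPM (0.44 ± 0.11, edgeR adjusted p = 0.0553). The count of hypoxia genes called higher was 10 in the fit of the 6 libraries alone (639 calls in all) and 12 without control 2 (1580 calls), but 0 with RLE scaling, without the combination group, and without any single swimming, curcumin or combination library. Of 20 immediate early genes, which respond to stimuli within minutes, none was called, 18 differences were positive and the median was 0.40. Egr1 was at 122, 94.1 and 140 CPM against 60.2, 64 and 60.4 CPM (0.95 ± 0.28, edgeR adjusted p = 0.0892). Its combination libraries were higher still, at 144 to 180 CPM, and control 2 reached 142 CPM. The combination libraries thus lay above swimming for Egr1, whereas for Aldoc, at 40.2 to 43.7 CPM, they lay below curcumin.

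Of 26 genes of the type I interferon response, 3 were called lower in swimming than in curcumin, where 0.99% of all tested genes were. The median was -0.40, and 1 difference was positive. The mean centred log2 CPM of the list was -0.47 to -0.05 in control and -0.48 to 0.04 in swimming. It was 0.22 to 0.23 in curcumin and 0.19 to 0.23 in combination. All libraries of swimming lay below all of curcumin for 14 of the 26, where 15.3% of all tested genes did. Oas2, which makes the activator of RNase L, was at 62, 48.8 and 63.8 CPM in swimming and 101, 101 and 99.5 CPM in curcumin (-0.79 ± 0.17, edgeR adjusted p = 0.042). The control libraries, at 41.3, 60.5 and 73.9 CPM, were like swimming, and the combination libraries, at 110 to 113 CPM, were above curcumin. Cmpk2, a mitochondrial nucleotide kinase, was at 27.8, 23.3 and 38.7 CPM against 55.8, 58.6 and 63.2 CPM (-0.98 ± 0.18, edgeR adjusted p = 0.0233). Ifit2, which binds viral RNA, was at 41.6, 34.2 and 53.3 CPM against 73.9, 72.1 and 79.6 CPM (-0.81 ± 0.17, edgeR adjusted p = 0.0396). For Cmpk2 and Ifit2, too, control resembled swimming and combination resembled curcumin in level.

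Of 25 genes of the interferon-gamma response, 4 fell, where 0.99% of all tested genes did. The median was -0.47, with 2 positive differences. Cxcl10, a chemokine that draws in T cells, was at 33.3, 21.3 and 37.6 CPM against 60.2, 64.8 and 65 CPM (-1.04 ± 0.18, edgeR adjusted p = 0.0208). Control libraries stood at 30.6 to 41 CPM, overlapping swimming, and combination libraries at 41.4 to 46 CPM, between the groups. Socs1, the inhibitor that shuts off JAK signalling, was at 7.9, 6.34 and 7.59 CPM against 16.3, 22.5 and 18.8 CPM (-1.40 ± 0.22, edgeR adjusted p = 0.0174). Irgm2, a GTPase of pathogen vacuoles, was at 195, 152 and 194 CPM against 238, 342 and 279 CPM (-0.67 ± 0.13, edgeR adjusted p = 0.0323). Gbp5, a guanylate-binding protein that promotes inflammasome assembly, was at 51.2, 42.3 and 57.1 CPM against 65.8, 105 and 83.7 CPM (-0.76 ± 0.17, edgeR adjusted p = 0.0482). Curcumin 2 was the highest library for Socs1, Irgm2 and Gbp5, and swimming 2 the lowest for all 4 genes. Without swimming 2 the interferon-gamma list had 2 calls. Without the combination group, curcumin 2, curcumin 3 or swimming 1, both interferon lists had 0, and without curcumin 2 the interferon-gamma median was -0.34. MHC class II genes, which interferon-gamma induces through Ciita, had 0 calls among 9 with a median of -0.61. Ciita itself was at 54.2, 37.1 and 66.1 CPM against 82.2, 108 and 83.9 CPM (-0.80 ± 0.23, edgeR adjusted p = 0.0825). MHC class I genes had a median of -0.06 and no call among 13.

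The promoters of the 4 called interferon-gamma genes are shown because each holds GAAA, 2 bases of any kind and GAAA again, the core of the element bound by interferon regulatory factors, while 3.44% of all 32851 promoters hold it on either strand. They again come from RefSeq on GRCm38.p6, 5′ to 3′ on the strand of the gene, with the motif in capitals. The Socs1 stretch is chr16:10785487-10785786 on the minus strand, with 2 overlapping matches that begin 83 and 77 bases before the start. Those of Cxcl10 (chr5:92348840-92349139, minus), Irgm2 (chr11:58214727-58215026, plus) and Gbp5 (chr3:142496684-142496983, plus) have 1 match each, 213, 64 and 165 bases before the start. In Gbp5 the match is on the opposite strand and is read as its reverse complement.
Socs1: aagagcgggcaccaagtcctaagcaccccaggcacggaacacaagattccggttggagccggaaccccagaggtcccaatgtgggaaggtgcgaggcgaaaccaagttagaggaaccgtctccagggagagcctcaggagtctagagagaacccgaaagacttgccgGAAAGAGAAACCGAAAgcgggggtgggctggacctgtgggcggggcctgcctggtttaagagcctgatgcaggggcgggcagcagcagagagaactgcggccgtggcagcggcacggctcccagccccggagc
Cxcl10: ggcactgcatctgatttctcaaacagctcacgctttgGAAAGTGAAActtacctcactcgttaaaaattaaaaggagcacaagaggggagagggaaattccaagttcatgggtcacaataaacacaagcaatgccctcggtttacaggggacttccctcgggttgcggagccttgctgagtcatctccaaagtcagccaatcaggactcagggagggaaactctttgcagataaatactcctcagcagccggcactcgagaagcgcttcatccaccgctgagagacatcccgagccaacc
Irgm2: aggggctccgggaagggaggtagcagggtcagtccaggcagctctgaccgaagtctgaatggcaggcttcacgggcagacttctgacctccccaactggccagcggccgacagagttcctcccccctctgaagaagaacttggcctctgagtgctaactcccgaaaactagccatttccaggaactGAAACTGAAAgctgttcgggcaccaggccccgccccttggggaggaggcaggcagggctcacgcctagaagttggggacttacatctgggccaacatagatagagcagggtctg
Gbp5: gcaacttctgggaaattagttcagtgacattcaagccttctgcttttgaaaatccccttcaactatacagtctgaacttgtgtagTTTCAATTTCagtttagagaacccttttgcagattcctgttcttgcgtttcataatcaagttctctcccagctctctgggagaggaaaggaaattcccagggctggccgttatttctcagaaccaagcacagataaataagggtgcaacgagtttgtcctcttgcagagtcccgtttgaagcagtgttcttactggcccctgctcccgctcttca
None of the 3 listed promoters of the type I genes Ifit2 and Cmpk2 holds these letters, which says nothing about binding elsewhere. Members were counted in the list where they were placed, and many interferon-stimulated genes answer to both kinds of interferon.

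Of 22 endothelial markers 6 fell and none rose, with a median of -0.52, where 0.99% of all tested genes fell. Of 19 genes of VEGF, angiopoietin and Tie signalling 5 fell, of which Kdr, Tek and Ptprb are in both lists. Ptprb, the phosphatase that restrains the Tie2 receptor, was at 12.5, 11.8 and 13.6 CPM in swimming and 25.3, 18.2 and 22.9 CPM in curcumin (-0.81 ± 0.13, edgeR adjusted p = 0.0174). Control and combination libraries held 27 to 32.8 CPM, so the swimming libraries were the lowest of all 12. Tek, which encodes Tie2, was at 3.08, 2.91 and 2.01 CPM against 9.28, 4.77 and 6.1 CPM (-1.34 ± 0.30, edgeR adjusted p = 0.0473). Kdr, the main VEGF receptor, was at 15.5, 18.2 and 8.78 CPM against 34.2, 22 and 27.8 CPM (-0.99 ± 0.23, edgeR adjusted p = 0.0485). Of these 6 libraries swimming 3 was the lowest for both receptors and curcumin 1 the highest. Over 25 alternatives Ptprb was called in 20, Tek in 10 and Kdr in 9. Kdr was not called in the fit of the swimming and curcumin libraries alone. The junction protein Pecam1 (-0.63 ± 0.15), the fenestral protein Plvap (-0.71 ± 0.16), the water channel Aqp1 (-0.73 ± 0.15) and the VEGF coreceptor Nrp1 (-0.63 ± 0.13) fell as well (edgeR adjusted p = 0.0366 to 0.0485). Aplnr, the apelin receptor of growing vessels, was at 2.41, 5.42 and 1.82 CPM against 13.9, 12.4 and 13.4 CPM (-2.04 ± 0.32, edgeR adjusted p = 0.0165). Its combination libraries, at 27 to 32 CPM, lay above both. Not every vascular gene was lower: Flt1, a decoy VEGF receptor, differed by 0.00, and Cdh5, the cadherin of endothelial junctions, by -0.29 (edgeR adjusted p = 0.577). Summed over the list, endothelial markers came to 541.3 to 673.8 CPM in swimming and 768.9 to 800.9 CPM in curcumin, with none of the 23 at 0 in either group. Without swimming 3 the list median was -0.26 and 1 member was called. As many were called without curcumin 2 or any combination library, and 0 without curcumin 3, swimming 1 or the combination group. Pericyte genes followed in part, with 2 of 11 called lower: Rgs5, at 14.5, 16.8 and 18.5 CPM against 37.3, 43.8 and 40.4 CPM (-1.29 ± 0.24, edgeR adjusted p = 0.026), and the potassium channel subunit Abcc9 (-0.85 ± 0.17, edgeR adjusted p = 0.0383).

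Of 21 macrophage markers 4 fell and 1 rose (Spp1), with a median of -0.71. Over all tested genes 0.99% fell and 0.909% rose. Ccr2, the receptor that brings monocytes in from blood, was at 16.6, 19 and 28.7 CPM against 49, 70.5 and 59.1 CPM (-1.47 ± 0.30, edgeR adjusted p = 0.0366). Trem2, a lipid-sensing receptor, was at 12.5, 13 and 12.1 CPM against 20.6, 36.3 and 24.8 CPM (-1.12 ± 0.21, edgeR adjusted p = 0.0296). The swimming libraries were nearly equal for Trem2, as were the combination libraries at 12.1 to 14 CPM, and curcumin 2 stood out upward. Apoe, a lipid carrier abundant in tissue macrophages, was at 874, 425 and 1061 CPM against 1397, 2503 and 1852 CPM (-1.29 ± 0.30, edgeR adjusted p = 0.0493). Over 25 alternatives Ccr2 was called in 15, Trem2 in 14 and Apoe in 8. Apoe was not called in the fit of the swimming and curcumin libraries alone. Fcgr1, the high-affinity antibody receptor, fell by 0.92 ± 0.19 on the log2 scale (edgeR adjusted p = 0.0386). General markers did not pass: the surface antigen Adgre1 differed by -0.71 (edgeR adjusted p = 0.118), the growth factor receptor Csf1r by -0.59 (edgeR adjusted p = 0.116) and the lysosomal Cd68 by -0.57 (edgeR adjusted p = 0.183). Summed macrophage markers were at 4069 to 4415 CPM in swimming and 4526 to 6802 CPM in curcumin, the highest being curcumin 2. Without swimming 2 the list had 1 called member and without swimming 3 it had 3, of which Spp1 was higher. It had 0 without curcumin 2, curcumin 3, swimming 1, any combination library or the combination group. Icam1, an adhesion molecule induced by NF-kB, was the only called gene of 27 NF-kB targets and cytokines, at 11.7, 8.46 and 14.8 CPM against 19.1, 28.8 and 27.8 CPM (-1.12 ± 0.23, edgeR adjusted p = 0.0385). That list had a median of 0.14, with 17 positive differences. T cell genes had no call among 16 and a median of -0.30, which was 0.16 without swimming 2 and -0.85 without swimming 3. For Cd8a, the coreceptor of cytotoxic T cells, the swimming libraries held 27.8, 9.05 and 46.7 CPM and overlapped the curcumin libraries at 35.5, 63.9 and 45.8 CPM.

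Secreted growth regulators of the stroma gave the clearest single difference. Grem1 (ENSMUSG00000074934, chromosome 2, 113576509 to 113588991 in the table's coordinates), an antagonist of bone morphogenetic proteins made by fibroblasts, was at 19.7, 31.1 and 13.9 CPM in swimming and at 93.9, 123 and 105 CPM in curcumin. It was lower in swimming by 2.32 ± 0.23 on the log2 scale, a 4.98-fold higher level after curcumin. Its adjusted p was the smallest of all genes (0.00404, edgeR). Control libraries were near swimming, at 29.7 to 43.3 CPM, and combination libraries above curcumin, at 139 to 141 CPM. Grem1 was called in 24 of 25 alternatives, the exception being the summed combination libraries (edgeR adjusted p = 0.0517), and was the only gene past a test against a 1.5-fold change. Lamc3, a laminin chain, was low and high in the same groups. It was at 2.34, 2.97 and 0.878 CPM in swimming and 9.4, 10.3 and 8.93 CPM in curcumin (-2.21 ± 0.38, edgeR adjusted p = 0.0232). Control libraries held 0.651 to 1.88 CPM and combination libraries 8.41 to 11.9 CPM. Both groups that received curcumin were thus high for Grem1 and Lamc3 and both that did not were low.

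Igf1, the insulin-like growth factor that macrophages and fibroblasts secrete, was at 1.34, 1.06 and 1.44 CPM in swimming and 7.66, 11.2 and 10.2 CPM in curcumin (-2.91 ± 0.51, edgeR adjusted p = 0.0233). The control libraries were split, at 10.5, 1.6 and 8.23 CPM, with control 2 near swimming. Wnt4, a secreted ligand of the mammary gland and of stroma, had 11 reads over the 3 swimming libraries and 118 over the 3 curcumin libraries, a ratio of 10.4 with a 95% counting interval of 5.61 to 21.4 (-3.35 ± 0.59, edgeR adjusted p = 0.0233). Among 32 Wnt pathway genes 3 fell, where 0.99% of all tested genes did, and the list median was -0.48. The inhibitors Nkd2 (-1.19 ± 0.26, edgeR adjusted p = 0.0453) and Dkk3 (-1.08 ± 0.25, edgeR adjusted p = 0.0493) fell beside this ligand. A ligand and inhibitors of the pathway therefore moved in the same direction. Further genes in the same direction were the incretin receptor Glp1r (-2.82 ± 0.43), the retinoic acid carrier Crabp1 (-2.46 ± 0.44), the carboxypeptidase-like Cpxm1 (-1.98 ± 0.45), the dynein Dnah8 (-1.89 ± 0.43), the transcriptional regulator Mn1 (-1.86 ± 0.41), the protease inhibitor Serpinb1a (-1.74 ± 0.33) and Spats2l (-1.61 ± 0.36). Their edgeR adjusted p-values ran from 0.0141 for Glp1r to 0.0485 for Dnah8. Of 24 alternatives Glp1r was called in 18 and Mn1 in 7. Mn1 was not called in the fit of the swimming and curcumin libraries alone. Crabp1 and Cpxm1 varied widely within curcumin, at 4.46 to 15.9 CPM and 31 to 111 CPM.

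Of 15 fibroblast markers only Dcn, the collagen-binding proteoglycan decorin, was called, at 18.1, 14 and 19.7 CPM against 31.7, 51.6 and 39.4 CPM (-1.24 ± 0.28, edgeR adjusted p = 0.0483). Over all tested genes 0.99% were called lower. The list median was -0.62, and it was -0.39 without swimming 3 and -0.92 without swimming 2. Summed fibroblast markers were at 1829 to 3110 CPM in swimming and 4098 to 4785 CPM in curcumin, and their part in the lower Grem1 was not tested. Of 34 collagen and fibril assembly genes, Col18a1 rose and Dcn fell, and the fibrillar chains Col1a1 (-0.93, edgeR adjusted p = 0.176) and Col3a1 (-0.996, edgeR adjusted p = 0.188) were not called. Fn1, fibronectin, had a positive difference of 0.52 (edgeR adjusted p = 0.131).

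**Figure D3:**
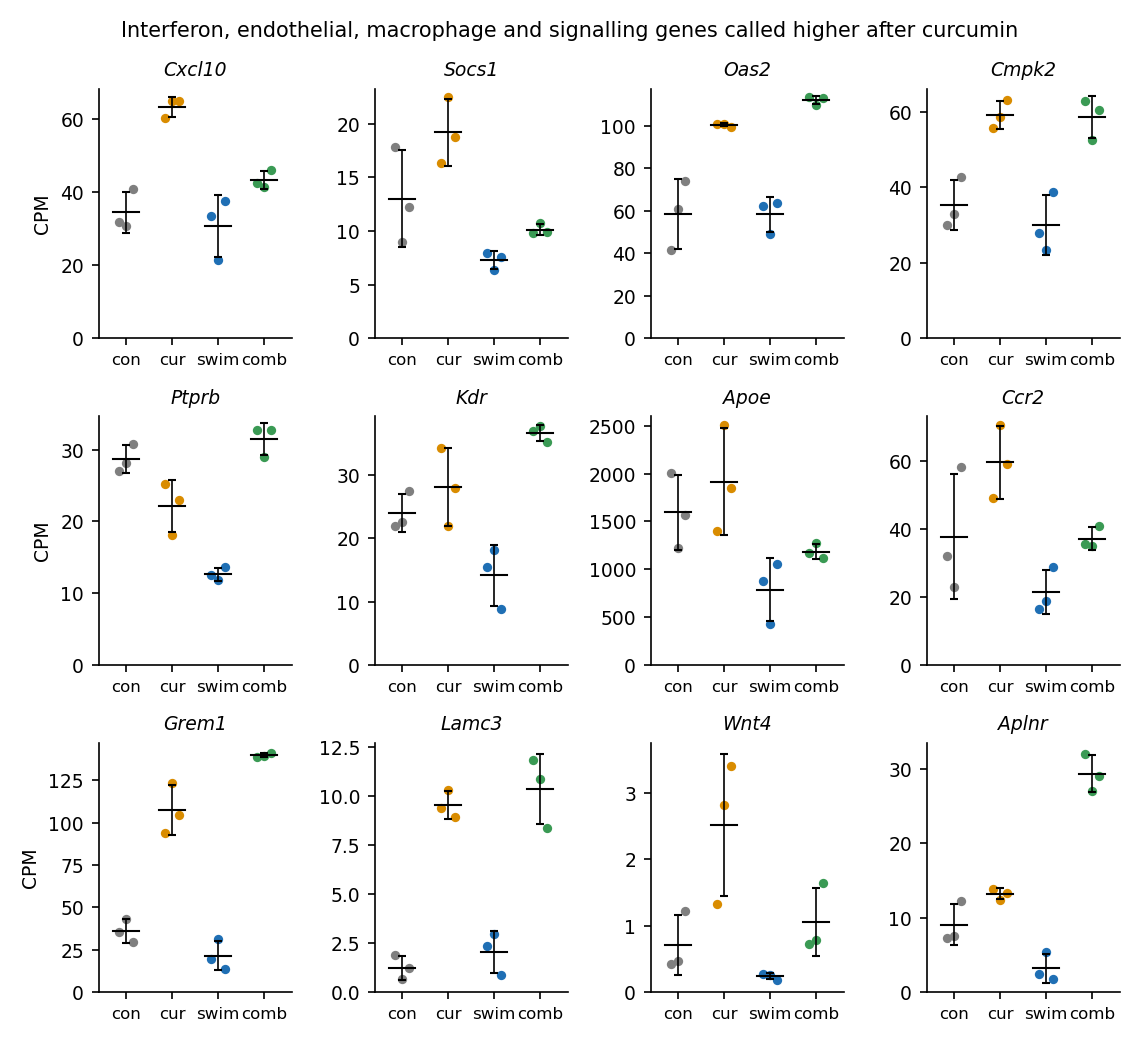
CPM of 12 interferon, endothelial, macrophage and signalling genes in control (con), curcumin (cur), swimming (swim) and combination (comb) libraries, replicates 1 to 3 from left to right, with mean and SD (n = 3). All 12 have every swimming dot below every curcumin dot, and for Grem1, Lamc3 and Oas2 control lies with swimming while combination lies with curcumin.

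Skeletal muscle genes gave the largest differences of all. Myh4, the myosin heavy chain of fast fibres, had 8, 0 and 19 reads in the swimming libraries and 2063, 1305 and 1746 reads in the curcumin libraries (-7.50 ± 1.49, edgeR adjusted p = 0.0364). The ratio of summed reads was 184 with a 95% counting interval of 126 to 279, which covers counting error only. Pvalb, the calcium buffer of fast muscle, had 1 read against 87 (edgeR adjusted p = 0.0396), a ratio of 84.4 with an interval of 14.7 to 3370. Myod1, the master regulator of muscle identity, had 2 reads against 61 (edgeR adjusted p = 0.0493), a ratio of 29.6 with an interval of 7.84 to 250. The creatine kinase Ckm was at 2.48, 0 and 3.64 CPM against 34, 16.5 and 24.5 CPM, but was not called (edgeR adjusted p = 0.0787). Of the 19 muscle genes tested, 2 were called lower, where 0.99% of all tested genes were. In that list 18 differences were negative and the median was -1.28. Summed muscle markers were at 320.8, 113.2 and 499.9 CPM in swimming and 844.8, 712.9 and 782.1 CPM in curcumin, and Tnnc2, alone among the 21 measured markers, was at 0 in all swimming libraries. The controls were at 496.7, 66.71 and 1097 CPM, so the control libraries alone spanned more than the range of both groups. Myh4 in control followed that spread, at 12.8, 0.0592 and 104 CPM. Without swimming 2 the list median was -0.82 and no member was called, and without swimming 3 it was -1.95, again with none called. The part of muscle tissue in the other differences was not tested.

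**Figure D4:**
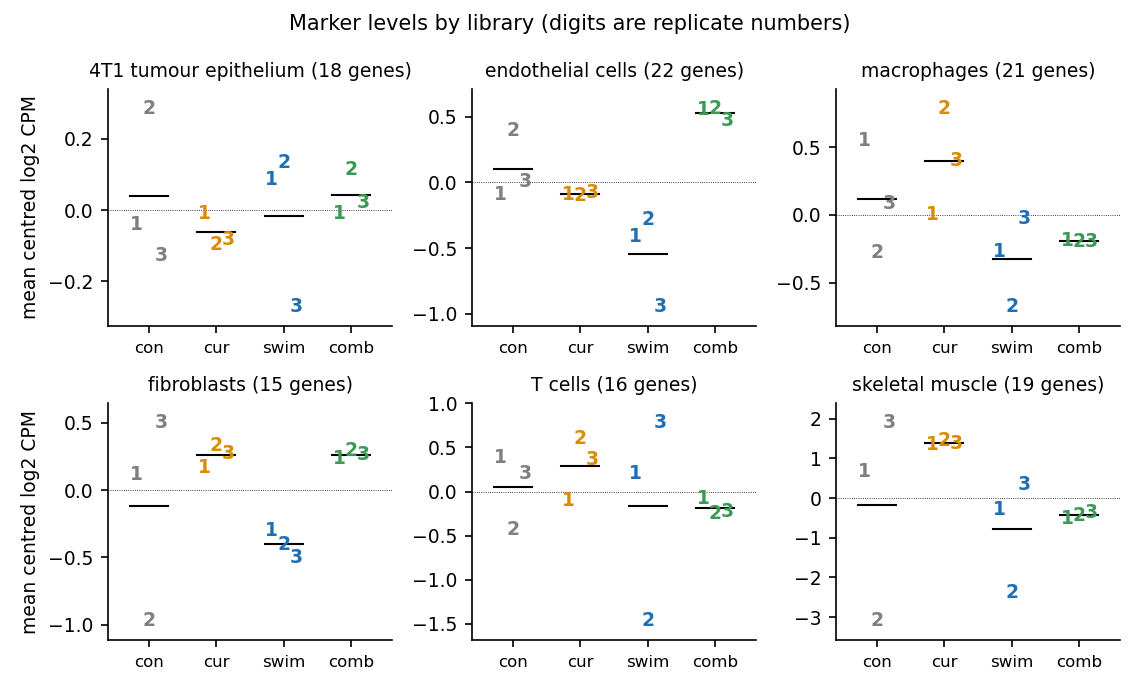
Mean log2 CPM of 6 marker lists in each library, each gene centred on its mean over the 12 libraries. Digits are replicate numbers and bars group means. Curcumin digits lie close together for muscle, while control spans -3.09 to 1.89 and swimming -2.39 to 0.35.

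None of 32 cell cycle genes was called, where 1.9% of all tested genes were. Still, 30 differences were negative with a median of -0.33, which was -0.15 without swimming 3. The cyclin Ccne2 was at 5.69, 5.49 and 4.51 CPM against 12.6, 11.3 and 13.3 CPM (-1.25 ± 0.36, edgeR adjusted p = 0.0842), and the proliferation marker Mki67 differed by -0.36 (edgeR adjusted p = 0.548). Of 18 epithelial markers, the keratin Krt18 rose by 0.40 ± 0.09 (edgeR adjusted p = 0.0493), and the list median was 0.09. Ribosomal protein genes had 31 positive differences of 34, a median of 0.20 and 1 call, Rps18. The limit given for Rpl26, on reads shared by near-identical copies, holds for Rps18 as well. The 10 tested mitochondrially encoded genes had 9 positive differences, a median of 0.27 and no call. Erythroid genes, a sign of blood in the tissue, had 4 positive differences of 4 tested, a median of 1.53 and no call, with the beta globin Hbb-bs at 11.9, 6.41 and 16.3 CPM against 5.85, 2.55 and 3.73 CPM (1.51 ± 0.40, edgeR adjusted p = 0.0704). The part of blood content and of the mitochondrial share in the genes called higher was not tested.

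The Nrf2 and antioxidant list had 0 of 24 members called and a median of 0.00, with glutathione reductase Gsr nearest the threshold at 233, 233 and 218 CPM in swimming against 177, 157 and 167 CPM in curcumin (0.45 ± 0.11, edgeR adjusted p = 0.0601). Xenobiotic metabolism (0 of 14, median -0.01), heat shock (0 of 19, 0.05), the integrated stress and unfolded protein response (0 of 22, 0.06), apoptosis and p53 targets (0 of 23, 0.01), lipid synthesis (0 of 26, 0.02) and the nuclear-encoded respiratory chain (0 of 28, -0.02) were alike in this. With 1.9% of all tested genes called, lists of this size would hold few or no calls, so counts of 0 say little about them. Fatty acid oxidation, an exercise-linked list, had 0 of 20 called and a median of -0.05. Of 17 genes for handling and sensing catecholamines 8 were abundant enough to test and none was called. In that list Slc6a2, the noradrenaline transporter of sympathetic nerves, stood at 0.132 to 0.439 CPM in swimming and 0.784 to 1.35 CPM in curcumin (edgeR adjusted p = 0.116), both below the 3.33 to 4.85 CPM of control.

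**Figure D5:**
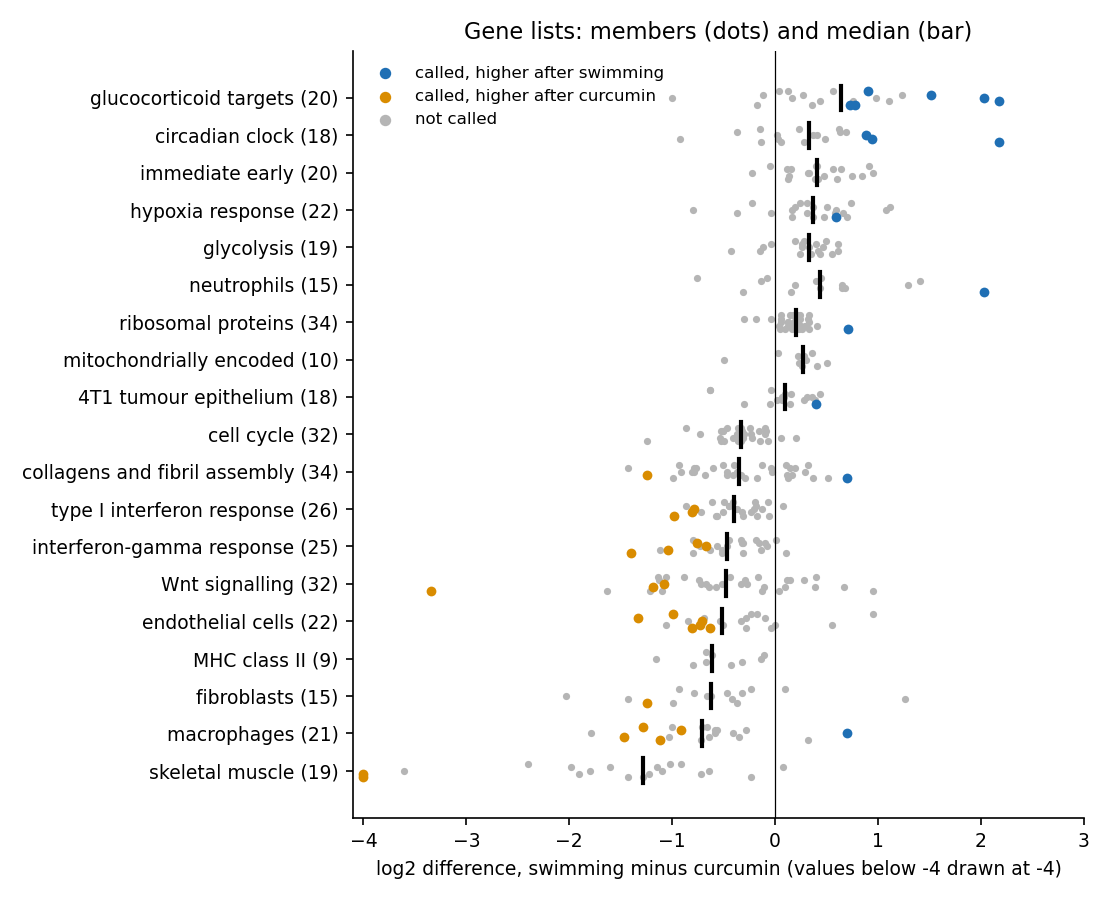
Log2 difference of swimming minus curcumin for the tested members of 19 gene lists (number in brackets), 1 dot a gene, with the list median as a black bar. Medians run from 0.64 for glucocorticoid targets to -1.28 for skeletal muscle, and coloured dots are called genes.

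The reference groups place these differences. The control mean lay between swimming and curcumin for 116 of the 124 genes called higher and 112 of the 135 called lower. Of the rest, 8 higher genes had control below both and, among the lower ones, 18 had control above both and 5 below both. On the log2 scale control was nearer to curcumin for 163 of the 259 called genes (62.9%), compared with 49.4% of all tested genes. The combination was nearer to curcumin for 170 (65.6%), compared with 58.3% of all tested genes. For genes called lower after swimming that share was 69.6%, and for genes called higher 61.3%. These shares use the libraries that also define the calls and are given as a description. For Per1, Il1r2, Bhlhe41 and Slc9a4 the larger difference from control was that of swimming alone. On the log2 scale it was 1.75, 1.84, 0.94 and 2.08 (edgeR adjusted p = 0.0308, 0.0431, 0.026 and 0.0308). In curcumin the differences were -0.42, -0.19, 0.00 and -0.10, none called. The combination mice also swam, but the mean centred log2 CPM of the clock list was -0.10 to -0.06 in combination and 0.20 to 0.35 in swimming. For glucocorticoid targets it was -0.15 to -0.06 against 0.35 to 0.47. Control 2 reached 3257 CPM summed over glucocorticoid targets, within the swimming range of 3255 to 3419 CPM. For Grem1 and Lamc3 the larger difference from control was that of curcumin, 1.57 and 2.93 (edgeR adjusted p = 0.0562 for both), against -0.74 and 0.72 in swimming (0.195 and 0.504, edgeR). Ptprb was lower than control by 1.18 on the log2 scale after swimming (edgeR adjusted p = 0.00545) and differed by -0.37 after curcumin (edgeR adjusted p = 0.36). Both contrasts share the control libraries, so they are given side by side only.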

How the data were processed

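RNA of whole tumours was sequenced in 12 libraries, and only the deposited gene table was used. It holds whole read counts per gene, which the authors made by trimming, aligning and counting, with HTSeq 0.9.1 per the labels' protocols. It also holds FPKM values that the authors derived from the counts, per the file headers. For 184877 of 184877 values above 0 the deposited FPKM equalled count over gene length and library total within a relative tolerance of 1e-05, and FPKM was used only for that check. The protocol names HISAT2 2.0.5 and build mm9, whereas the submitters' processing notes name GRCm39 together with cutadapt, TopHat2, HISAT2 and DESeq 1.30.0. Positions are therefore given as the table holds them, and promoter sequences with their own build. Strand setting and the handling of reads shared by gene copies are not given in the sources used here.

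Groups were read from sample titles, because the treatment label of the swimming libraries mentions corn oil only. edgeR 4.0.16 in R 4.3.3 was used with its filterByExpr rule (count of 10 in enough libraries, total of 15) and TMM scaling. A quasi-likelihood model with 1 mean per group was fitted to the 12 libraries together, leaving 8 residual degrees of freedom. The contrast was swimming minus curcumin, with Benjamini-Hochberg adjustment over 13638 genes and a threshold of 0.05. Library totals ran from 15069348 to 17278826, so that 3 counts, called the floor here, came to 0.174 to 0.199 CPM. This floor marks low levels only, and no gene was filtered by it. Ratios of few reads carry exact 95% intervals, which cover counting error only. The pipeline was tested on simulated data drawn with the same spread in every group. The groups here differed in spread, and that test does not cover this.

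The 45 gene lists (935 entries, 920 in the table) and the comparison itself were chosen with earlier results of these data known, and lists are described without a test. Named genes are the 15 largest called differences per direction among genes with an ordinary symbol whose libraries do not overlap and whose higher group reaches 1 CPM, plus the 3 members of smallest p and every called member of each list. Other list members appear with values only. For 20 symbols on more than 1 row, the row with more counts served the lists. A list's level in a library is the mean over members of log2 CPM (prior count 2), centred per gene. Of the 15 called members of the clock, glucocorticoid and interferon lists, 14 had a promoter in the RefSeq table. Alternatives were DESeq2 1.42.0, limma 3.58.1 voom with a common spread or a weight per group, RLE and upper quartile scaling, other filters, fewer groups, a replicate block, leaving out libraries 1 by 1, and testing against 1.5-fold.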

Additional observations from a re-analysis of the deposited data

How the results depend on the processing

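The number of genes called between swimming and curcumin, 259, was within 1.5 times of that with RLE or upper quartile scaling, without a filter, with a minimum mean count of 50, and without swimming 2 or control 3. It was 1032 with DESeq2, 148 with limma voom under a common spread, 907 with voom and a weight per group, 639 with the swimming and curcumin libraries only, 12 without the combination group and 1 against a 1.5-fold change. Leaving out 1 library at a time gave 3 to 1580. Chosen after seeing the data, summing the combination libraries into 1 gave 0 calls (2378 at an unadjusted p under 0.05) and dropping the combination group with control 2 gave 647. The share of calls higher in swimming, 47.88% of 259, was 75% of 12 without the combination group and 66.67% of 12 without curcumin 2. It was 34.27% of 143 without curcumin 1 and 33.33% of 3 without curcumin 3. Without the combination group and control 2 it was 58.27% of 647. Shares of 3 or 12 calls say little about the balance of directions. With replicate number as a block 62 genes were called, all among the 259. Correlations of same-numbered swimming and curcumin libraries, each centred on its group mean, were -0.067, 0.012 and 0.035. Over all groups same-numbered pairs ran from -0.251 to 0.165 and other pairs from -0.189 to 0.228. With 3 libraries a group these values cannot exclude a pairing by replicate number. Pax5, a B cell gene with a difference of 0.19 (edgeR adjusted p = 0.888), changed sign to -0.057 under both voom fits (common spread and weight per group). It ran from -0.62 (without swimming 3) to 0.60 (without swimming 2) when 1 library was left out, with -0.083 without curcumin 2, and the cause was not tested. The other recomputed values were those of named genes, list medians and the counts of genes called higher or lower. Of these, 4059 were the same, 703 lost and 215 gained a call, and 65 medians or counts moved. Depth limits genes near the floor of 3 counts (0.174 to 0.199 CPM), such as Pvalb and Myod1 in swimming.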

Other observations

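The genes in these paragraphs were chosen after their values were seen. They are a few of the 259 called genes, picked without a list, and stand for no group. Among the 135 called lower after swimming were 7 more interferon-induced genes: the double-stranded RNA kinase Eif2ak2 (110 ± 13.1 CPM in swimming and 161 ± 9.23 in curcumin, SD, n = 3), Slfn8 (79.7 ± 10.3 and 123 ± 9.24), the GTPase Ifi47 (64.5 ± 6.11 and 95.3 ± 3.92), the ubiquitin ligase Rnf213 (425 ± 53.8 and 576 ± 13.6), the helicase Znfx1 (107 ± 18.9 and 156 ± 15.4) and the ADP-ribosyltransferases Parp12 (115 ± 4.23 and 145 ± 2.01) and Parp14 (248 ± 33.3 and 337 ± 25.9). Log2 differences for these 7 genes ran from -0.62 for Slfn8 to -0.34 for Parp12, and edgeR adjusted p-values from 0.0241 for Ifi47 to 0.0493 for Eif2ak2. The sterol-sensing receptor Nr1h3 (2.81 ± 1.28 and 7.83 ± 2.14 CPM) and the cholesterol exporter Abcg1 (10.7 ± 2.06 and 27.6 ± 13.2 CPM) differed by -1.48 and -1.37 (edgeR adjusted p = 0.0469 and 0.0442). The complement receptor C3ar1 (-1.15 ± 0.21), the complement inhibitor Serping1 (-1.13 ± 0.26) and the antibody receptor Fcgr4 (-1.30 ± 0.27) with its signalling chain Fcer1g (-0.73 ± 0.16) had edgeR adjusted p-values from 0.0273 for C3ar1 to 0.0483 for Serping1. Serping1 was as high in combination (142 ± 7.3 CPM) as in curcumin (145 ± 30.2 CPM), while Fcgr4 in combination (24.4 ± 2.5 CPM) was as low as in swimming (25.2 ± 6.14 CPM).

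The next genes, except Ly6a at the end, which was called lower, are a few of the 124 called higher after swimming. The MAP kinase phosphatases Dusp4 (124 ± 1.49 CPM in swimming and 66.6 ± 6.34 in curcumin) and Dusp5 (58.7 ± 6.24 and 39.6 ± 4.65) rose by 0.90 ± 0.13 and 0.57 ± 0.12 on the log2 scale, and the cAMP-induced kinase Sik1 (111 ± 11.2 and 58.5 ± 2.19 CPM) by 0.93 ± 0.16, with edgeR adjusted p = 0.0139, 0.0396 and 0.0233. The splicing genes Ptbp2 (0.81 ± 0.11), Srrm1 (0.40 ± 0.09), Zrsr2 (0.38 ± 0.09), Sf3b1 (0.36 ± 0.08) and Srsf4 (0.35 ± 0.08) rose with edgeR adjusted p-values from 0.00801 for Ptbp2 to 0.0483 for Zrsr2. The cytoskeletal regulator Mtss1, at 305 ± 8.81 CPM after swimming and 161 ± 15.3 CPM after curcumin (0.92 ± 0.11, edgeR adjusted p = 0.00765), and the stem cell antigen Ly6a, at 56 ± 5.95 and 112 ± 20.1 CPM (-0.999 ± 0.12, edgeR adjusted p = 0.00765), had the smallest adjusted p-values of the genes in these 2 paragraphs.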
